A study of Mus musculus with 10 samples.

Results

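The genes described here are 10 regulators and markers of fat-cell formation, Pparg, Cebpa, Cebpb, Cebpd, Klf4, Klf5, Klf15, Fabp4, Lpl and Cd36, measured in mouse myoblasts that had received a miR-142-3p mimic. They were chosen by name: each array probe whose gene name in the scanner files was 1 of these symbols was used, whatever its signal. They make up 10 of the 34607 genes and 11 of the 55681 probes on the array, since Lpl has 2 probes and every other gene has 1. On the slide they fill 20 of 59305 spots, because the Pparg probe was printed 10 times. A probe was tested if it was well above background, by the scanner software's own call, on at least 4 of 10 scans. This kept 7 of the 10 genes, and 13672 of all 34607.

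The cells were C2C12, an established mouse myoblast line that grows as single cells and can fuse into myotubes. In the mimic group the cells had received a synthetic miR-142-3p (mirVana mimic) at 150 nM. The scramble group had received a scrambled sequence at the same dose. Both groups were transfected with a lipid reagent in serum-containing growth medium, no agent that induces fat-cell formation is named in the labels, and RNA was taken after 72 h. The submitters estimated a transfection efficiency of about 60%, and the share of cells that held the mimic was not measured here. RNA was labelled with Cy3 and hybridised to an Agilent 1-colour array of 60-base probes.

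The labels list 6 mimic and 4 scramble replicates, but the file headers place the 10 scans on 5 positions of the same slide, with each position scanned once on each of 2 days. Scans of the same position shared 21 to 77 spots marked as non-uniform, and scans of different positions shared at most 2, so the scans of a position were averaged. This left 3 mimic arrays and 2 scramble arrays. No label or header says which culture an array came from, so the p-values reflect how much these arrays differ, a spread that may be technical. Scramble titles, unlike mimic titles, are tagged as a re-analysis, and the sources used here do not explain the tag. Each scan had 25.4% to 34.6% of its spots well above background. Values are log2 signals relative to the scan's 75th percentile, so they compare arrays for 1 probe and not the levels of different genes.

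Fat-cell formation is driven by a cascade of transcription factors. The early C/EBP proteins, C/EBP-beta and C/EBP-delta, are induced first and act on the gene of PPAR-gamma, the nuclear receptor that fat cells require. PPAR-gamma and C/EBP-alpha then sustain each other and switch on fat-cell genes such as Fabp4, Lpl and Cd36, while several KLF zinc-finger proteins act before or beside them. In muscle the same lipid-handling genes serve fatty acid uptake, and Lpl and Cd36 are active in muscle fibres as well as in fat.

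The mature sequence of the microRNA is shown because it defines the transfected agent. Its seed, bases 2 to 8, is in capitals in the first line, from RefSeq's GRCm38.p6 annotation at chr11:87756903-87756925 on the plus strand. The second line shows 30 bases of the Fabp4 probe at mm9 chr3:10204465-10204494 on the minus strand. Its capitals are the letters ACACTACA, the reverse complement of the seed followed by an A.
miR-142-3p: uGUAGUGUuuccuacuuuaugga
Fabp4 probe stretch: atttgcatcaaACACTACAatagtcagtcg
Only the strand of the transcript was searched, and only the 60 bases of each probe. The Fabp4 probe was the 1 probe of the 11 that held these 8 letters, which occurred in 56 of the 55681 probes on the array (0.101%). The shorter form without the last A, ACACTAC, occurred in 144 probes (0.259%), and in the same 1 of the 11. A match of letters is a description and not a site shown to be bound, and the other parts of the transcripts were not searched.

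Pparg and Cebpd were higher, and Klf5 was lower, in the mimic arrays than in the scramble arrays. Pparg was 2.36-fold and Cebpd 2.87-fold higher, and Klf5 was 2.88-fold lower. The other tested genes, Cebpa, Cebpb, Klf4 and Lpl, did not pass the test, and Klf15, Fabp4 and Cd36 were not well above background on any of the 10 scans. The test was limma's moderated linear model across all 13672 genes, with a gene called where its Benjamini-Hochberg adjusted p was under 0.05. Thus 3 of the 7 tested genes were called, against 9.59% of all tested genes. The 2 called higher stand against 5.76% of all genes, and the 1 called lower against 3.83%. In these 3 genes the mimic and scramble arrays did not overlap, as was also the case for 42.6% of all tested genes. The array measures the whole culture, so fewer cells of a type and less RNA per cell cannot be told apart.

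**Figure D1:**
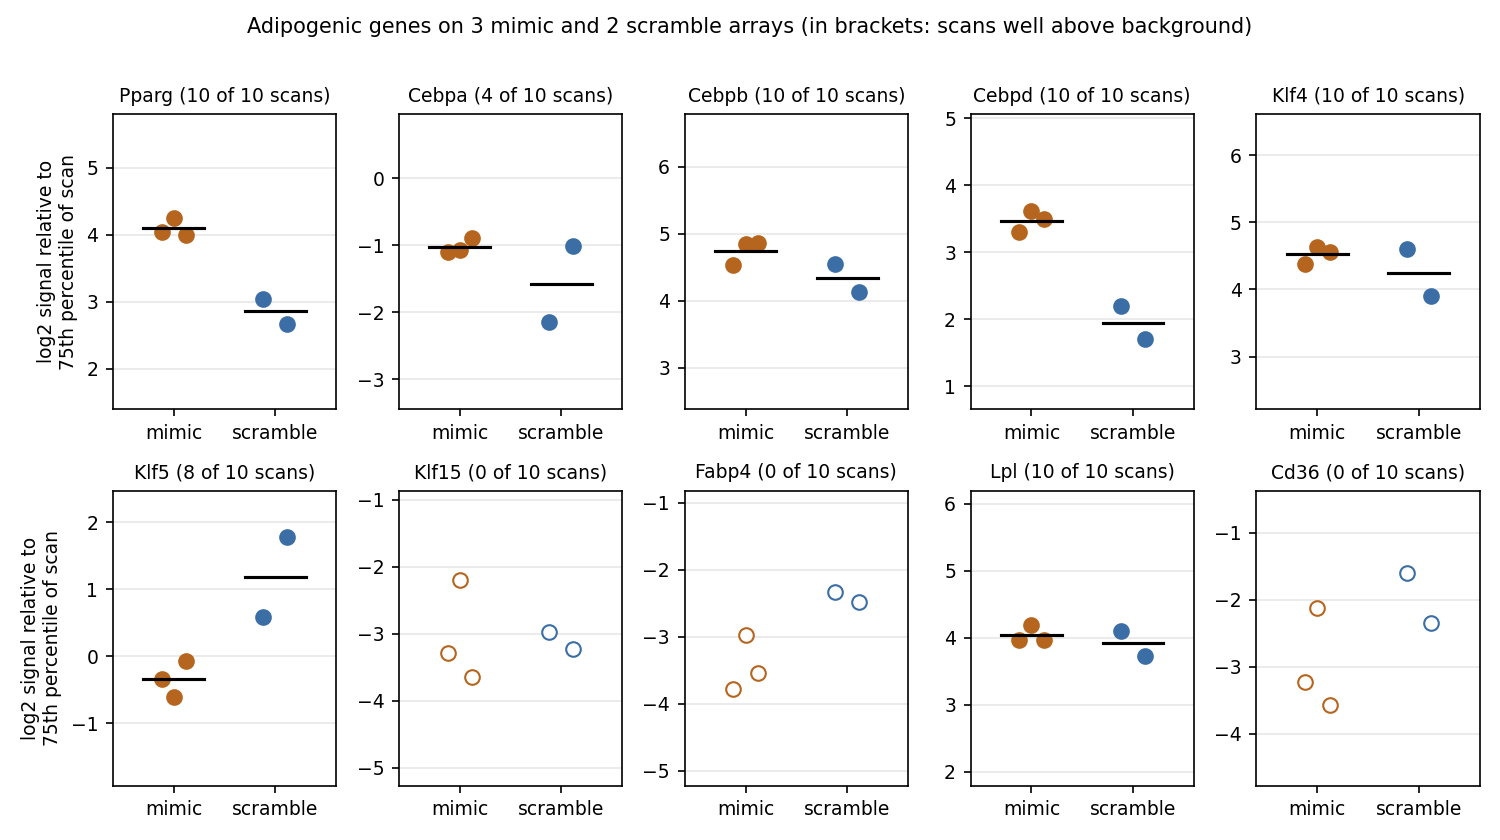
Log2 signal relative to the scan's 75th percentile (vertical axes, each spanning the same log2 range) for the 10 genes on 3 mimic arrays (brown, left) and 2 scramble arrays (blue, right). Lines are group means, and open points mark genes not well above background on any of the 10 scans. Pparg and Cebpd sit higher and Klf5 lower on every mimic array than on either scramble array.

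Cebpd encodes C/EBP-delta, which is induced within the first steps of the cascade. On the 3 mimic arrays its normalised log2 signal was 3.30, 3.62 and 3.50, against 2.19 and 1.70 on the scramble arrays. The mimic arrays lay close together and all above both scramble arrays, which differed more from each other. The means were 3.47 ± 0.16 with the mimic and 1.95 ± 0.35 with scramble (SD, n = 3 and 2 arrays), a log2 difference of 1.52 ± 0.23 (SE; 95% limits 1.0 to 2.05) with an adjusted p of 0.0050 by limma. On the linear scale of the scanner the mimic scans ran from 1630 to 2626 with a median of 2014, and the scramble scans from 494.0 to 896.3. The probe lies at mm9 chr16:15888459-15888518, and it was well above background on all 6 mimic and all 4 scramble scans. Cebpd stayed called in 18 of 19 processing alternatives, all of which reuse the same 5 arrays. Some count rescans as samples or use 1 scan day, and so add no replicate. The exception was the test of all 34607 genes with no filter on dim probes, where its adjusted p by limma was 0.0705.

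Cebpb encodes C/EBP-beta, the partner of C/EBP-delta in the early step. Its log2 signal was 4.54, 4.84 and 4.86 on the mimic arrays and 4.55 and 4.13 on the scramble arrays. The groups overlapped, since 1 mimic array lay just below the higher scramble array. The difference of 0.40 ± 0.22 (SE; 95% limits −0.11 to 0.92) did not pass the test, with an adjusted p of 0.301 by limma, and these limits still allow a change of up to 0.92 on the log2 scale. The probe is at mm9 chr2:167515828-167515887 and was well above background on all 10 scans.

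Cebpa encodes C/EBP-alpha, which acts later and maintains the fat-cell state. Its probe, at mm9 chr7:35906517-35906576, was dim: only 3 of 6 mimic scans and 1 of 4 scramble scans had it well above background. The log2 signal was −1.09, −1.06 and −0.90 on the mimic arrays and −2.15 and −1.01 on the scramble arrays. The second scramble array lay within the mimic range. The 2 scans of the first had linear signals of 47.2 and 32.4. The lowest signals called well above background on those scans were 80.7 and 61.4. The value of the first scramble array is therefore only an upper bound. The difference of 0.56 ± 0.32 (SE; 95% limits −0.18 to 1.30) had an adjusted p of 0.316 by limma. Cebpa was called only without scramble array 2, where the difference was 1.13 and rested on the first scramble array, below background, alone. Under the alternatives the difference ranged from −0.01 to 1.13, and no other alternative gave a call.

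Of the other C/EBP genes on the list, 4 in number, 3 were tested and none was called. Their median log2 difference was 0.11, against 0.09 over all tested genes, and it ranged from −0.15 without mimic array 3 to 0.38 without mimic array 2.

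Pparg encodes PPAR-gamma, the receptor that fat-cell formation depends on. Its normalised log2 signal was 4.05, 4.25 and 3.99 on the mimic arrays, against 3.04 and 2.67 on the scramble arrays. Every mimic array lay above both scramble arrays. The means were 4.10 ± 0.13 with the mimic and 2.86 ± 0.26 with scramble (SD, n = 3 and 2), and the log2 difference of 1.24 ± 0.21 (SE; 95% limits 0.75 to 1.73) had an adjusted p of 0.00973 by limma. The call was lost in 2 alternatives, 1 of them with a mimic array left out. Without mimic array 2 or 3 it held, with an adjusted p of 0.0453 and 0.0388 by limma. Without mimic array 1 the difference was 1.26 and its adjusted p 0.0515, and with no filter on dim probes the difference was 1.24 and the adjusted p 0.141. In the other 17 of 19 alternatives Pparg stayed called, with differences from 1.05 to 1.42. These include fits that count rescans as samples. They also include array median scaling, which gave each tested adipogenic gene the same SE, 0.416, whatever its own spread.

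The Pparg probe offers a view that the other genes do not, since its 10 spots repeat the measurement within each scan. The 60 spots on mimic scans ran from 2443 to 3784 intensity units, against 946 to 1547 for the 40 spots on scramble scans. No mimic spot fell within the scramble range. Within a scan the spots differed by a coefficient of variation of 4.55% to 8.58%, and 6 of the 100 spots carried an outlier or non-uniformity mark and were left out of the averages. The spots of a scan repeat the printing and not the culture, and they count as 1 value. The probe lies at mm9 chr6:115440213-115440272, and the files pair it with 2 transcript variants of Pparg, so the isoforms cannot be told apart.

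**Figure D2:**
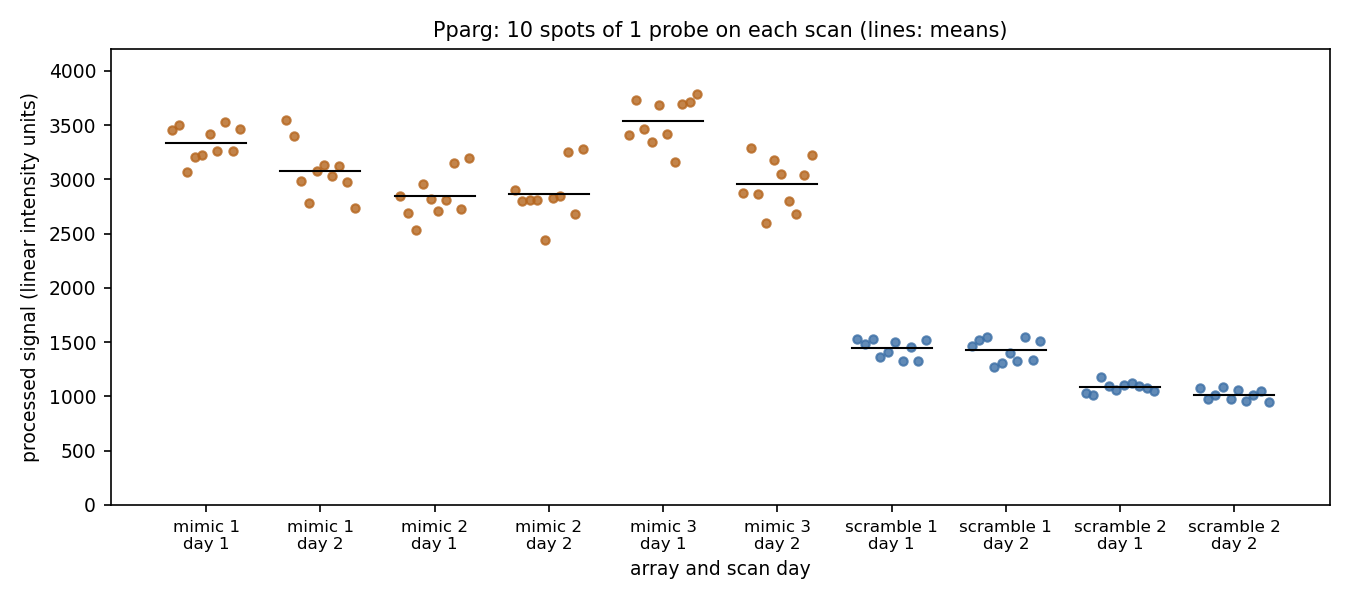
Processed signal of each of the 10 Pparg spots (vertical axis, linear intensity units) on the 10 scans, grouped by array and scan day, with mimic scans in brown at the left and scramble scans in blue at the right. Lines are the means of the spots drawn, marked spots included. All 60 mimic spots (2443 to 3784) lie above all 40 scramble spots (946 to 1547).

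Because Cebpd and Pparg were both higher, the 250 bases before each Pparg start in RefSeq's table (GRCm38.p6) were searched for the C/EBP motif written as TTNNGCAA, where N is any base, on both strands. The third of the 3 Pparg starts held it, and its window, chr6:115421816-115422065 on the plus strand, is shown with the matches in capitals.
Pparg start 3: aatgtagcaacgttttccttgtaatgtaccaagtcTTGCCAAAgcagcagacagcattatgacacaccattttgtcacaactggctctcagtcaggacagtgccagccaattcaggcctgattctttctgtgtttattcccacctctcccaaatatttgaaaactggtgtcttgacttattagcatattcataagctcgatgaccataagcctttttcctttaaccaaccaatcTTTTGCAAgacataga
The matches begin 215 and 16 bases before the start. The other 2 windows held none, and 9.56% of the 32851 windows of this length in the table held at least 1. That share is per window, and a gene with 3 windows has more room for a match. This describes letters only: binding was not measured, and the probe does not say which start was used. Of the 10 genes 6 had an entry in that table, and Cebpd, Klf5, Fabp4 and Lpl had none.

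The other PPAR and RXR genes, whose products are the receptors related to PPAR-gamma or paired with it, numbered 5. Of these 4 were tested and none was called, with a median log2 difference of 0.01. With an array left out the median ran from −0.14 to 0.09, and 1 gene was called higher without scramble array 1. Rxra, which encodes a partner of PPAR-gamma, was not well above background on any of the 10 scans.

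Klf5 encodes a zinc-finger factor that acts between the early C/EBP proteins and Pparg in mouse fat-cell formation. It was the 1 regulator called lower. Its log2 signal was −0.34, −0.60 and −0.07 on the mimic arrays, against 0.59 and 1.78 on the scramble arrays. The groups did not overlap, but the scramble arrays stood farther apart from each other than the lower of them stood from the nearest mimic array. The means were −0.34 ± 0.26 with the mimic and 1.19 ± 0.85 with scramble (SD, n = 3 and 2). The difference of −1.52 ± 0.35 (SE; 95% limits −2.33 to −0.72) had an adjusted p of 0.0336 by limma.

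The Klf5 call was lost in more alternatives than that of Pparg or Cebpd. Klf5 was dim with the mimic: 4 of 6 mimic scans and all 4 scramble scans had it well above background, with linear signals of 87.5 to 219 with the mimic and 229 to 615 with scramble. It did not pass in 9 of 18 alternatives. Without scramble array 2 the difference was −0.93 with an adjusted p of 0.0887 by limma, and without mimic array 1, 2 or 3 the adjusted p was 0.117, 0.106 and 0.0615. The difference was below 0 in all 18, from −2.12 to −0.93. The probe is shown because it reads a spliced message: its 60 bases span 9733 bases of mm9, chr14:99702656-99712388 on the plus strand, in the zinc-finger coding part of the gene.
Klf5 probe: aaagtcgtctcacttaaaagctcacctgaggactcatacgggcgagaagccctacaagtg

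Klf4, which can act on Cebpb early in mouse fat-cell formation, had log2 signals of 4.38, 4.64 and 4.56 on the mimic arrays and 4.61 and 3.90 on the scramble arrays. The higher scramble array lay among the mimic arrays. The difference of 0.27 ± 0.25 (SE; 95% limits −0.31 to 0.85) had an adjusted p of 0.537 by limma. The probe lies at mm9 chr4:55540167-55540226 on the minus strand.

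Klf15, which promotes the later steps and also acts on lipid use in muscle, was not well above background on any of the 10 scans. Its linear signals were 14.9 to 37.1 on mimic scans and 13.0 to 23.6 on scramble scans. The lowest signal that the software called well above background was 45.8 to 122 on mimic scans and 60.7 to 97.3 on scramble scans. These values therefore set only an upper bound, and no fold is given. The probe is at mm9 chr6:90425144-90425203.

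Among 14 other KLF genes, 8 were tested and none was called, and the median log2 difference was 0.16. Leaving out scramble array 2 turned the median to −0.12, and leaving out scramble array 1 gave 0.19. Some alternatives gave calls, leaving out scramble array 1 among them. There was 1 higher over probes above background on all 10 scans, with normexp background, and with scan date and array as blocks. A replicate block gave 1 higher and 1 lower, and the 10 scans as 10 samples gave 1 higher and 2 lower. Klf6 and Klf13 were singled out after their values were seen, because they had the smallest p-values of the 8. Klf6 had log2 signals of 4.97, 5.40 and 5.18 on the mimic arrays and 4.67 and 3.76 on the scramble arrays, with an adjusted p of 0.0824 by limma. Klf13 had 0.31, 0.12 and 0.49 on the mimic arrays and 0.79 and 1.57 on the scramble arrays, with an adjusted p of 0.0882. Neither gene's groups overlapped, as was also the case for 42.6% of all tested genes, and neither passed the test.

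Lpl encodes lipoprotein lipase, which frees fatty acids from circulating lipoproteins. It was the 1 gene of the fat-cell set with signal well above background, and it did not pass the test. Its brighter probe, at mm9 chr8:71430267-71430326, had log2 signals of 3.97, 4.19 and 3.97 on the mimic arrays and 4.11 and 3.73 on the scramble arrays. The higher scramble array lay among the mimic arrays. The difference of 0.13 ± 0.21 (SE; 95% limits −0.36 to 0.61) had an adjusted p of 0.750 by limma.

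The second Lpl probe, shown because it reads the coding part of the same message, lies at mm9 chr8:71425050-71425109 on the plus strand.
Lpl second probe: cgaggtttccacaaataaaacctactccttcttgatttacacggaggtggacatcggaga
Its log2 signals were 0.76, 0.40 and 0.71 on the mimic arrays and 0.58 and 0.83 on the scramble arrays, again with overlap. The difference was −0.09 ± 0.21 (SE; 95% limits −0.58 to 0.41), with an adjusted p of 0.839 by limma over the 17449 probes tested. The probes differed in sign and neither was called, and the limits of both leave out a change of 1 on the log2 scale in either direction.

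Fabp4 encodes the fatty acid carrier that is among the most abundant proteins of fat cells, and Cd36 encodes a fatty acid transporter of the cell surface. Neither was well above background on any scan. Fabp4 had linear signals of 13.6 to 25.0 on mimic scans and 18.7 to 63.4 on scramble scans, and its probe spans mm9 chr3:10204452-10204511 on the minus strand. Cd36 had 14.8 to 41.7 on mimic scans and 25.4 to 58.2 on scramble scans, at mm9 chr5:17288600-17288659 on the minus strand. Signals this low have no usable order, so no difference is given for either gene. Of the 3 genes of fat-cell lipid uptake chosen here, only Lpl could therefore be compared between the groups.

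The values within scan days and slide rows were set beside the averages. The days are scans of the same arrays and add no replicate. On the first and second scan day the log2 difference was 1.29 and 1.19 for Pparg, 1.57 and 1.47 for Cebpd, and −1.45 and −1.60 for Klf5. The first slide row held 2 mimic arrays and 1 scramble array, and the second row held 1 of each, so a row gives a value with no test. In the first and second row the difference was 0.98 and 1.57 for Pparg, 1.20 and 1.91 for Cebpd, and −0.79 and −2.38 for Klf5. Since no mimic array of these 3 genes overlaps a scramble array, their direction within a row is fixed, and only the sizes are informative.

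**Figure D3:**
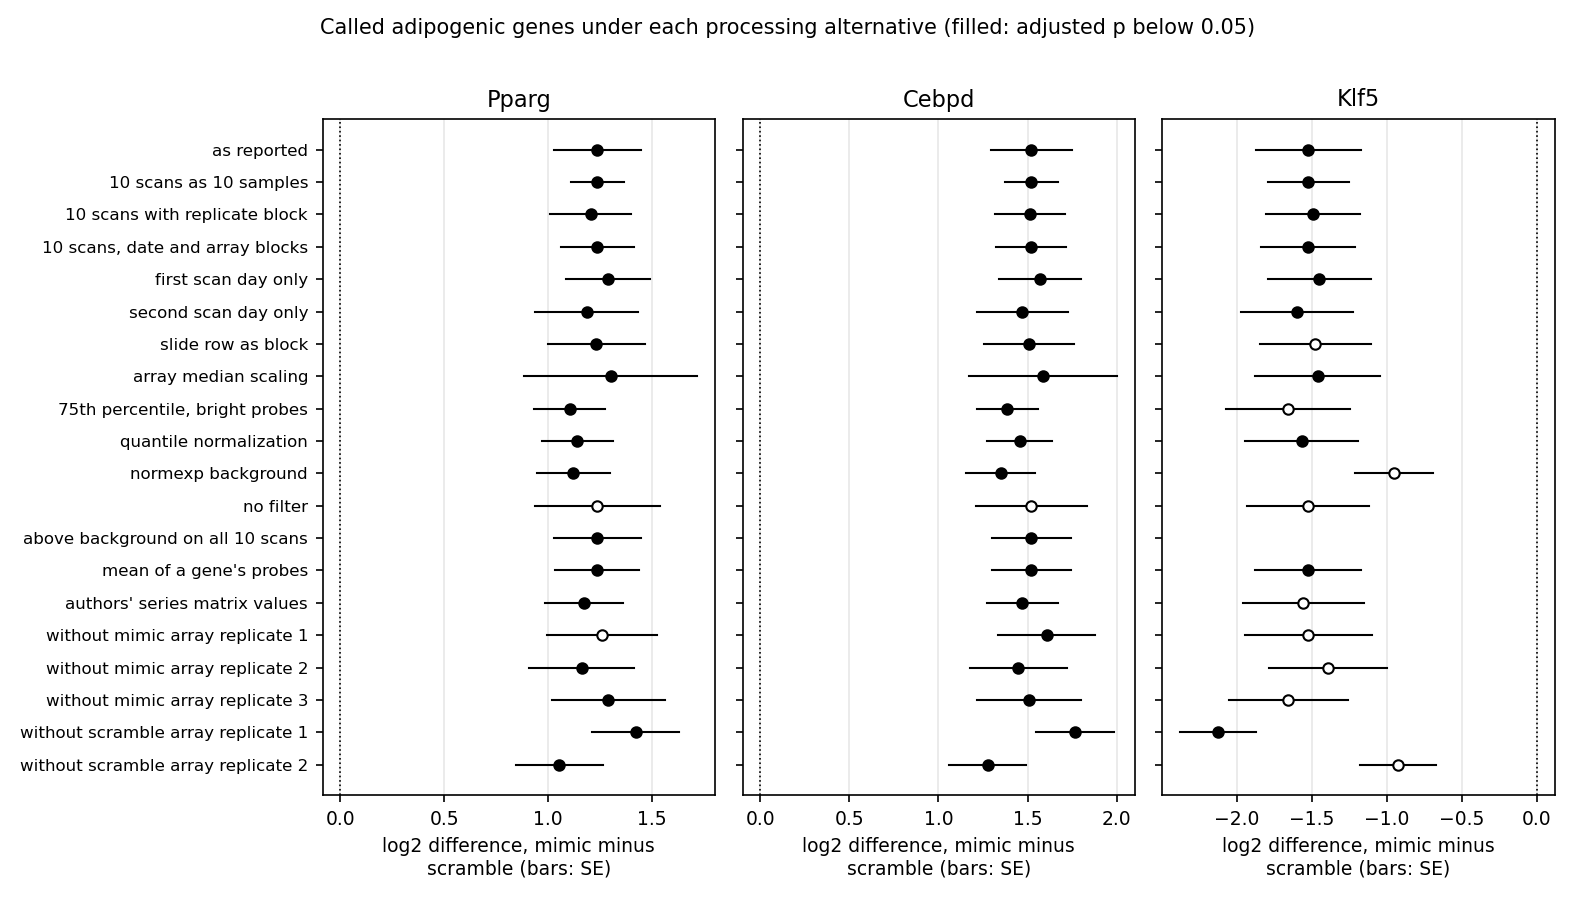
Log2 difference, mimic minus scramble, of Pparg, Cebpd and Klf5 (horizontal axes, with SE bars) as reported and under each processing alternative that gave a value (rows). Filled points have an adjusted p below 0.05 by limma, and open points do not. All points of Pparg and Cebpd lie above 0 and all of Klf5 below 0, while 2 points of Pparg, 1 of Cebpd and 9 of Klf5 are open.

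The wider program was read from lists of related genes. Of 19 factors and cofactors that promote fat-cell formation, 13 were tested, none was called higher and 1 was called lower, with a median log2 difference of −0.13. The 1 called lower was Srebf1, which encodes a regulator of lipid synthesis: it was 2.32-fold lower, with an adjusted p of 0.0443 by limma, and the call was lost in 12 of 18 alternatives. Leaving out scramble array 1 gave 3 called higher and 0 lower on this list, with a median of −0.06, and the median was also −0.06 without scramble array 2. Of 18 factors that restrain fat-cell formation, 13 were tested and none was called, with a median of 0.14. This became 0.34 with 2 called higher when scramble array 1 was left out, and −0.06 when scramble array 2 was. Over all tested genes the median was 0.09, with 5.76% called higher and 3.83% called lower. Dlk1, the classical preadipocyte inhibitor, was not well above background on any of the 10 scans.

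Genes of mature fat cells were detected in part. Of 25 on the list, 12 were not well above background on any of the 10 scans, among them the hormone genes Adipoq, Retn and Lep, the lipid-droplet genes Plin1 and Cidec, the lipase gene Lipe, and Cfd. Of the 10 tested, 2 were called higher and 1 lower, against 5.76% and 3.83% of all tested genes. The median log2 difference was 0.01. That median rested on single arrays: leaving out scramble array 1 gave 0.41 with 4 called higher, and leaving out scramble array 2 gave −0.30 with 1 called higher. Adig, Gpd1 and Slc2a4, singled out after their values were seen, show that some genes of this list were in range. Whether their signal is particular to fat cells was not tested. Adig, which encodes adipogenin, cleared background on 5 of 6 mimic scans and all 4 scramble scans. Gpd1, a glycerol phosphate dehydrogenase gene, did so on 6 mimic and 2 scramble scans, and Slc2a4, the insulin-responsive glucose transporter gene, on 4 mimic and 3 scramble scans. None of these 3 was called.

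Plin4, which encodes a coat protein of lipid droplets, had the smallest p of the mature fat-cell list. Its log2 signals were 2.31, 2.61 and 2.39 on the mimic arrays, against 1.20 and 0.48 on the scramble arrays. All mimic arrays lay above both scramble arrays, a 3.03-fold rise with an adjusted p of 0.00708 by limma that was lost in 1 of 19 alternatives, the one with no filter. Agpat2, an enzyme of triglyceride synthesis, was 1.77-fold higher, with an adjusted p of 0.0443. Dgat2, which catalyses the last step of that synthesis, was 2.07-fold lower, with an adjusted p of 0.0440. The calls of Agpat2 and Dgat2 were lost in 11 and 9 of 19 alternatives.

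Around Lpl and Cd36, 17 genes of fatty acid uptake and of lipase folding and control were listed. Of the 14 tested, 1 was called higher and 1 lower, against 5.76% and 3.83% of all tested genes. The median log2 difference was −0.29. Leaving out scramble array 2 turned this median to 0.03, with 2 called higher and 2 lower, and leaving out scramble array 1 gave −0.38, with 3 and 3. Angptl4, a secreted inhibitor of lipoprotein lipase and a known PPAR target, was the one called higher. Its log2 signals were 3.81, 4.12 and 3.90 on the mimic arrays, against 2.66 and 2.11 on the scramble arrays. Thus the groups did not overlap, and the 2.94-fold rise had an adjusted p of 0.00526 by limma, lost in 1 of 19 alternatives, the one with no filter. Apoe, which encodes a lipoprotein component, was the one called lower. It was not well above background on any of the 6 mimic scans and was so on all 4 scramble scans. Its log2 signals were −1.56, −1.47 and −1.66 on the mimic arrays, against 1.23 and 1.63 on the scramble arrays. Set against the lowest signal well above background, or its own signal where that was higher, it was at least 6.63-fold lower with the mimic. Its adjusted p was 0.00013 by limma. Neither the Apoe nor the Angptl4 groups overlapped.

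Gpihbp1 and Apoc2, which encode the anchor and the activator of lipoprotein lipase, were not well above background on any of the 10 scans. Of 6 other fatty acid binding protein genes 2 were tested and none was called. In some alternatives 1 was called lower, among them quantile normalization and the filter for probes above background on all 10 scans. With the 10 scans as 10 samples 1 was called lower and 1 higher. Fabp5 had a log2 difference of 0.45 and an adjusted p of 0.277 by limma. The other tested gene, Fabp3, the carrier of heart and skeletal muscle, was singled out after its values were seen. It had log2 signals of 0.71, 1.0 and 1.21 on the mimic arrays and 1.94 and 1.68 on the scramble arrays, with an adjusted p of 0.0547 by limma.

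Among 14 brown and beige fat genes 7 were tested, with a median of −0.18 (−0.41 without scramble array 1). None was called higher and 1 was called lower, against 5.76% and 3.83% of all tested genes. The one was Cox8b, a cytochrome oxidase subunit of brown fat, heart and skeletal muscle. Its log2 signals were 1.18, 1.59 and 1.30 on the mimic arrays, against 3.33 and 3.09 on the scramble arrays, a 3.61-fold fall with an adjusted p of 0.00130 by limma that held in all 19 alternatives. Ucp1, Cidea and Prdm16, which mark brown and beige fat cells, were not well above background on any of the 10 scans.

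**Figure D4:**
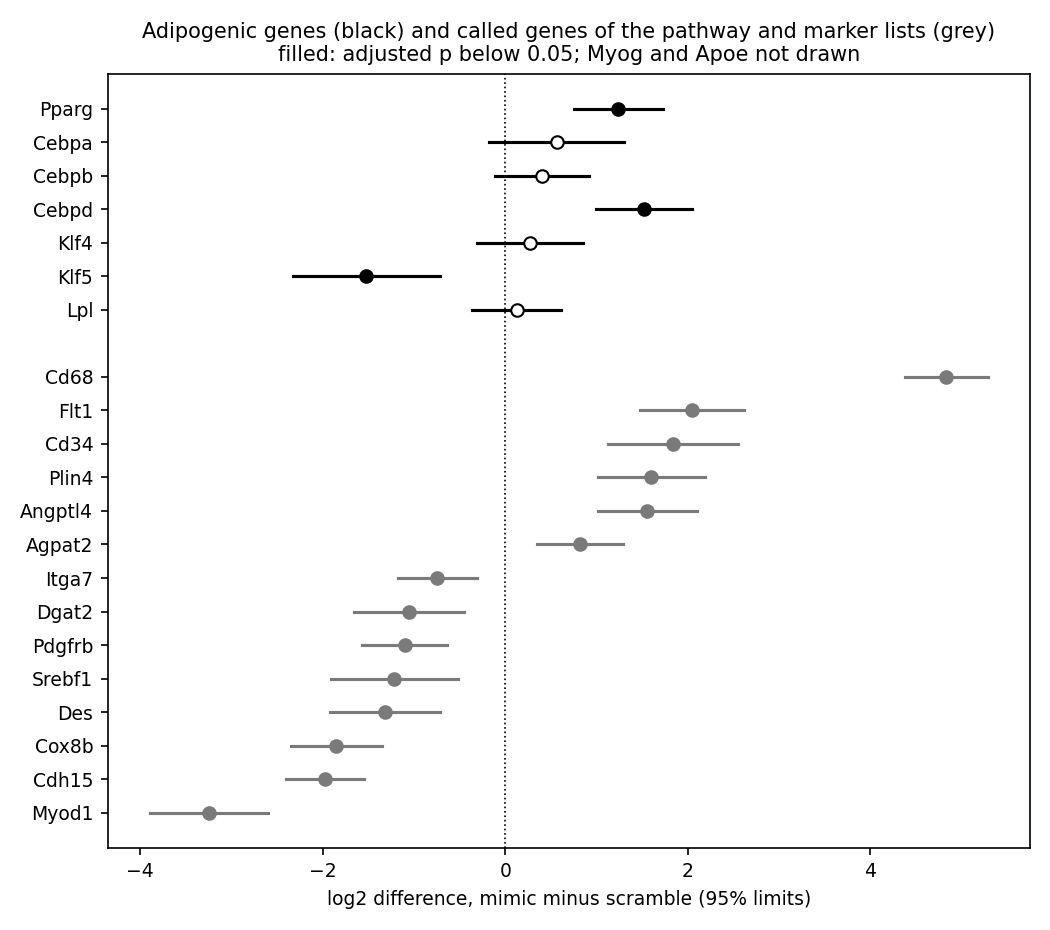
Log2 difference, mimic minus scramble, with its 95% limits (horizontal axis) for the 7 tested adipogenic genes (black, top) and for genes of the pathway and marker lists that were called (grey, bottom). Filled points have an adjusted p below 0.05 by limma. Myog, whose difference lies beyond the axis, and Apoe, for which only a bound is given, are not drawn. Pparg, Cebpd, Plin4, Angptl4 and Agpat2 lie above 0, and Klf5, Srebf1, Dgat2 and Cox8b lie below.

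Markers of muscle and of other cell types moved in the same arrays, and their part in the differences above was not tested. Of 9 myoblast markers 7 were tested, 5 were called lower and none higher, against 3.83% of all tested genes called lower. With any 1 mimic array left out, 3 were called lower. Their summed signal, which adds probes of unequal brightness and is led by the brightest, was 187 to 193 times the 75th percentile on mimic arrays and 380 to 449 times on scramble arrays. Without the called genes it was 51.3 to 57.4 times on mimic arrays and 43.1 to 50.1 times on scramble arrays. The tested markers that were not called, Ncam1 and Vcam1, had log2 differences of 0.25 and 0.23. Myog and Myod1, which encode muscle regulatory factors, were 135-fold and 9.51-fold lower, and Myog was still well above background on 5 of 6 mimic scans. Cdh15, a cadherin of myoblasts, and Des, the muscle intermediate filament, were 3.94-fold and 2.49-fold lower, and the Des call was lost in 6 of 19 alternatives. These markers of the labelled cell type were well above background on every scramble scan, and Pax7 was not on any of the 10.

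Preadipocyte and mesenchymal progenitor markers did not move 1 way. Of 10 listed 6 were tested, 1 was called higher and 1 lower, with 2 called higher without scramble array 1. Over all tested genes 5.76% were called higher and 3.83% lower. The summed signal was 139 to 180 times the 75th percentile on mimic arrays and 116 to 154 times on scramble arrays. Without the called genes it was 111 to 128 times on mimic arrays and 95.9 to 137 times on scramble arrays, with overlap. Cd34, a marker shared by progenitors of several tissues, was 3.58-fold higher with an adjusted p of 0.00908 by limma, a call lost with no filter. Pdgfrb, a receptor of mesenchymal and perivascular cells, was 2.15-fold lower with an adjusted p of 0.0134, and this call was lost in 4 of 19 alternatives. Dpp4, Thy1 and Eng were not well above background on any of the 10 scans.

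Of 13 macrophage markers 8 were not well above background on any of the 10 scans, Ptprc, Adgre1, Lyz2, Tyrobp and C1qa among them. Of the 4 tested 1 was called, against 5.76% of all tested genes called higher: Cd68, a lysosomal protein gene, was 28.5-fold higher. The summed signal was 43.3 to 47.4 times the 75th percentile on mimic arrays and 16.8 to 16.9 times on scramble arrays, and without Cd68 it was 17.0 to 18.6 times on mimic arrays and 15.9 to 16.0 times on scramble arrays. The other tested markers were not called, with log2 differences of 0.56 for Fcer1g, 0.14 for Itgam and 0.17 for Csf1r. Of 10 endothelial markers 7 were not well above background on any of the 10 scans, Pecam1, Cdh5 and Vwf among them. Of the 2 tested, 1 was called, against the same 5.76%: Flt1, a VEGF receptor gene, was 4.14-fold higher. The summed signal was 6.08 to 8.03 times the 75th percentile on mimic arrays and 3.54 to 4.37 times on scramble arrays. Without Flt1 it was 3.56 to 4.19 times on mimic arrays and 2.88 to 3.51 times on scramble arrays.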

How the data were processed

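The deposited scanner files hold spot intensities on a linear scale, corrected for background by the scanner software. Per the file headers this was Feature Extraction 12.0.0.7 and coordinates are mm9; version 10.7.3.1 stands in the submitters' processing notes. The deposited series matrix also holds intensities. Its scale was read as linear from the values, which reach 465700 with column medians of 175.5 to 353.8. On the log2 scale they correlated with the scans at r of 0.996 to 1.000. Column medians were 196.2, 353.8, 194.1, 175.5, 205.8 and 211.7 for mimic scans 1 to 6 and 234.2, 234.3, 195.6 and 206.2 for scramble scans 1 to 4, and how the authors scaled arrays to each other is unknown.

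The 75th percentile of non-control probes on a scan was subtracted from log2 of the processed signal, leaving out spots marked as non-uniform or as population outliers. A probe was well above background on a scan when at least 0.5 of its spots were, and needed 4 scans. The brightest probe stood for its gene. Scans of mimic replicates 1 and 4, 2 and 5, and 3 and 6, and of scramble replicates 1 and 3, and 2 and 4, shared a position and were averaged. The test was limma 3.58.1 (lmFit, eBayes; R 4.3.3), adjusted over all genes, with 3 residual degrees of freedom and 5.03 from the prior. The fit was tested on simulated data. Bounds were taken against the lowest signal well above background, or the gene's own signal where that was higher.

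RefSeq tables (GRCm38.p6) gave current names to 28026 probes through the accession, to 3418 through the symbol and to 295 through a synonym; 23942 kept their file name. The members and lists were chosen with earlier results of these data known. Named are all 10 genes, of each list up to 4 called genes in order of p, and defining markers under background; the text says where another gene was singled out after its values were seen. Alternatives changed the replicates, batch, scaling, background, filter, probe rule and values, or left out 1 array. With 5 arrays in all, their number limits the precision. At most 1 spot per scan was saturated.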

Additional observations from a re-analysis of the deposited data

How the results depend on the processing

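The 1311 genes called became 4254 with the 10 scans as 10 samples, 834 with slide row as a block, 802 with the array median for scaling, 423 with no filter and 648 with the authors' series matrix values, and leaving out an array gave 554 to 3732 (3732 without scramble array 1). The share called higher also moved: of the 1346 genes called with the 75th percentile over bright probes, 676 were higher and 670 lower, and with the series matrix 322 were higher and 326 lower, against 788 and 523 as reported. Over all genes the median log2 difference was 0.09 as reported, −0.04 with the bright-probe percentile and 0.16 with the array median. Of the 10 adipogenic genes, 3 were called as reported, 0 with no filter (34607 genes tested) and 1 to 3 with an array left out (1 without mimic array 1). Those called higher numbered 2 as reported, 0 with no filter and 1 to 3 with an array left out. Klf5, the 1 called lower, gave 0 calls with slide row as a block (−1.48, adjusted p 0.0697 by limma), the bright-probe percentile (−1.66, 0.0515), normexp (−0.95, 0.0615), no filter (0.196) and the series matrix (−1.56, 0.108), and 0 to 1 with an array left out. It was not tested where a probe had to be above background on all 10 scans, which also gave 0. Of the probes 3 were called, 0 with no filter and 1 to 3 with an array left out. No called result changed sign, while the uncalled differences of Cebpa (−0.01 to 1.13), Klf4 (−0.08 to 0.63) and Lpl (−0.06 to 0.31) crossed 0 in some. Leaving out a scramble array leaves 1, which is then assumed to vary like the mimic arrays.

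The labels give both groups the same replicate numbers. Same-numbered scans deviated from their group means with correlations of −0.27 to 0.19, and 0 of 4 scramble scans correlated best with the mimic scan of their own number, so the numbers were not taken as pairs. A fit with a replicate block over the 10 scans called 2302 genes, and of the adipogenic genes Pparg, Cebpd and Klf5. It counts the 2 scans of an array as separate samples and uses numbers not taken as pairs. Its calls therefore add no replicate and no support.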
